A study of Mus musculus with 69 samples.

Results

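The extracellular matrix and stellate cell genes described here are a list of 36 genes fixed by name, with all of their probes, read across the 5 groups that the array titles give. The list holds fibrillar, basement membrane and microfibril collagens, proteoglycans, matrix glycoproteins, matrix proteases and their inhibitors, cytoskeletal genes of contractile cells, and the cytokine gene Tgfb1. Of the 36 genes, 34 had a probe that the platform annotation names, out of 16593 genes with a named probe, and these 34 genes had 47 of the 25697 probes. Probes with a detection p under 0.05 on 13 or more of the 69 arrays entered the tests, which left 37 probes of 28 genes, out of 12442 probes and 8729 genes.

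The tissue was liver from C57BL6/J mice killed at 25 months of age, with a separate array for each of 69 animals, so that p-values measure the spread between mice. There were 21 Rapa females, 16 control females, 6 Rapa-2 males, 7 Rapa-1 males and 19 control males. Rapa mice ate chow with 14 ppm of encapsulated rapamycin, which inhibits mTOR, a kinase that drives growth, from 4 months of age for 21 months, and control mice ate the same chow with the empty Eudragit capsule material. The Rapa-1 and Rapa-2 males received the same diet, and the study divided them by the expression values of these same arrays, so that p-values for either group are descriptive.

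In liver the matrix is thin. Hepatic stellate cells lie between the endothelium and the hepatocytes and, once activated by injury and by the product of Tgfb1, they express smooth muscle actin and deposit collagens and the inhibitors of the proteases that remove them. Basement membrane proteins are also made by the endothelium, and portal fibroblasts and vascular smooth muscle add further matrix. The question put to the data was how the transcripts of these proteins stood after long rapamycin feeding in each sex.

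Before any scaling the Rapa-2 males had a median raw bead signal of 89.0 ± 4.23 (SD, n = 6), that of Rapa-1 males was 124 ± 5.37 (n = 7) and that of control males 129.96 ± 10.6 (n = 19). Single arrays ranged from 84 to 96.8 in Rapa-2 males and from 113.8 to 146 in control males, without overlap. A fit with this median as a covariate thus cannot separate the Rapa-2 group from the signal level. Such fits are given below. Rapa females (n = 21) and control females (n = 16) had 102 ± 7.26 and 104 ± 7.85. Rapa females had 39.9 ± 1.31% of probes detected and control females 43.6 ± 1.86%. Hepatocyte markers, 9 of 13 tested, averaged between 13.12 and 13.43 on the log2 scale on the arrays of Rapa females and between 13.16 and 13.43 in control females, so that the labelled tissue was borne out. Of 20 markers of quiescent stellate cells only 11 could be tested, and the defining markers Hgf, Gfap, Hand2 and Lhx2 were not among them. The animal numbers of 7 control males follow on from those of the Rapa males, and those of 7 control females from those of the Rapa females, while the other 12 control males and 9 control females come from separate stretches of numbers. All Rapa-1 males have lower animal numbers than all Rapa-2 males, so that each of these groups is a stretch of its own. Results for Rapa-1 or Rapa-2 males thus cannot separate the group from its stretch of numbers. In each sex, every Rapa mouse also has a lower animal number than every control mouse. The comparisons of Rapa females and of all Rapa males with their controls thus cannot separate the diet from the animal numbers either. The sources used here do not say what these stretches mark, and within a stretch the groups do not alternate.

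Some single arrays carried high signals of many of the 28 tested genes, and they are given here because several results rest on them. On control female 3 the genes lay a median of 0.94 above their group median on the log2 scale, and 20 of the 28 were over 0.5 above it. Control female 15 had a median deviation of 0.35 with 12 such genes, Rapa-2 male 4 had 0.52 with 15, and Rapa female 2 had 0.32 with 8. On control female 3 the log2 signal of Col1a1, a chain of the main fibrillar collagen, was 8.85, or 2.03 above the group median, and that of Sparc was 10.85, or 1.72 above. On Rapa-2 male 4, Col1a1 had 8.46 (1.28 above), Acta2, the smooth muscle actin of activated stellate cells, had 10.58 (1.30 above), and Timp1, an inhibitor of matrix proteases, had 8.77 (1.34 above). Col15a1, Col18a1, Timp3, Mmp14 and Des lay within 0.25 of the group median on both of these arrays. The 11 tested markers of Kupffer cells and macrophages were also high there, by 1.43 on control female 3, 1.86 on control female 15, 1.02 on Rapa-2 male 4 and 1.44 on Rapa female 2, as the deviation of their mean log2 signal from the group median. The part of these cells in the matrix signals was not tested.

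**Figure D1:**
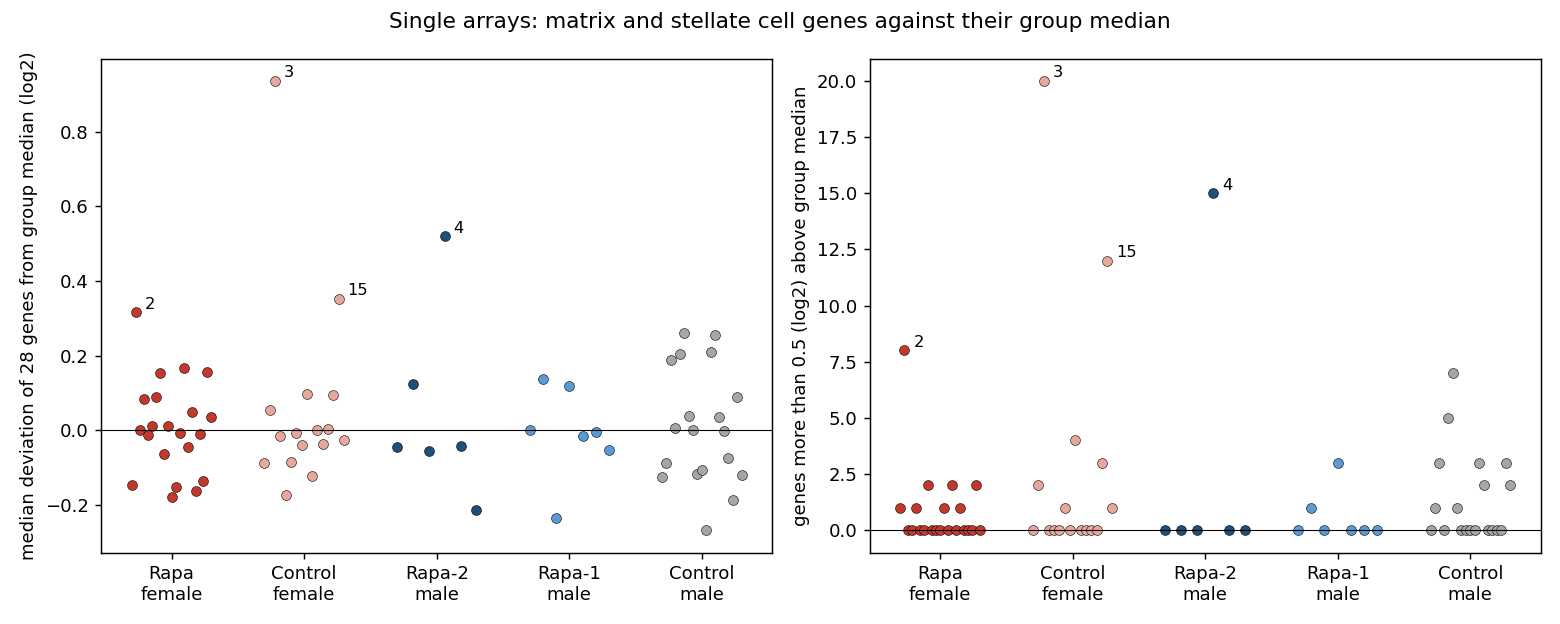
Each point is 1 array, placed by group. The left panel gives the median deviation of the 28 genes from their group median (log2 signal) and the right panel the number of genes over 0.5 above it. Control females 3 and 15, Rapa-2 male 4 and Rapa female 2 are numbered, with 20, 12, 15 and 8 such genes.

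Among fibrillar collagens, which form the tensile fibrils of scar and vessel wall, the signals were weak. Col1a1 was detected on 36 of the 69 arrays, Col1a2, the other chain of type I collagen, on 22, and Col5a1, which starts the assembly of fibrils, on all. Col3a1 had 2 probes, detected on 9 arrays and on 1 array, and was not tested. Col5a2, Eln, Lox, Thbs1 and Tagln each had 1 probe, detected on 0, 12, 3, 2 and 3 arrays, and fell under the filter too. Fn1 and Fbn1 were not analysed here. Of the 28 tested genes, 22 were detected on every array, and the other 6 were Col1a1, Col1a2, Col15a1, Col6a2, Loxl1 and Timp1, for which differences are compressed by the background.

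In Rapa females against control females the list did not move as a body. A transcript passed where its adjusted p was under 0.05 (limma's moderated test with Benjamini-Hochberg adjustment over all tested probes) and its change was over 15%. By that rule 5 of the 28 genes passed, 1 higher and 4 lower, where 37.9% of all 8729 tested genes passed, 19.2% higher and 18.7% lower. The median log2 difference of the members was 0.01, beside 0.02 for all tested genes. In whole tissue, fewer cells of a type and less RNA per cell cannot be told apart. Dcn, Tgfbi, Timp3 and Col18a1 were the genes that fell, and Col15a1 was the gene that rose. With the share of detected probes as an added term, Dcn (-0.35, adjusted p of 0.0221 by limma) and Col15a1 (0.27, 0.0441) passed, while Tgfbi (-0.11, 0.778), Timp3 (-0.27, 0.126) and Col18a1 (-0.20, 0.0662) did not. Under median scaling Col15a1 did not pass (0.09, 0.334).

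Dcn codes for decorin, a small proteoglycan that coats collagen fibrils and binds TGF-beta. Its brighter probe had a lowest, median and highest log2 signal of 11.44, 11.89 and 12.66 in Rapa females, against 12.16, 12.68 and 13.37 in control females. The median of the Rapa females thus lay below the lowest control female, although the ranges overlapped. The log2 difference was -0.79 ± 0.09 (SE), with an adjusted p of 2.66e-09 by limma, and 21 of 21 Rapa females lay below the control mean. A dimmer probe of Dcn gave 7.62, 8.16 and 9.64 in Rapa females and 9.20, 9.63 and 10.48 in control females, a log2 difference of -1.43 ± 0.13 with an adjusted p of 5.44e-11. The direction was thus shared by both probes and the sizes were not.

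Tgfbi codes for a secreted protein induced by TGF-beta that ties cells to collagen. Its log2 signal was 9.99, 10.60 and 11.48 (lowest, median, highest) in Rapa females and 10.57, 11.11 and 12.28 in control females. The difference was -0.58 ± 0.14 with an adjusted p of 0.000709 by limma, and 20 of 21 Rapa females were below the control mean. Its other probe gave -0.18 ± 0.10 with an adjusted p of 0.151, so the fall rests on the brighter probe.

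Timp3 codes for the protease inhibitor that stays bound to the matrix. Rapa females had 8.16, 8.63 and 8.93 and control females 8.49, 9.03 and 9.58, a difference of -0.42 ± 0.08 with an adjusted p of 1.56e-05 by limma. The ranges overlapped widely, with the highest Rapa female just below the median of control females. Col18a1, whose collagen chain releases endostatin and which hepatocytes express strongly, had 12.91, 13.18 and 13.35 in Rapa females and 13.16, 13.37 and 13.75 in control females. Its difference was -0.24 ± 0.05 (adjusted p of 4.72e-05 by limma), and a dimmer probe gave -0.04 ± 0.07 (adjusted p of 0.617). For Timp3 the second probe was not tested, as it was detected on 5 arrays.

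Col15a1 codes for a collagen of the zone that joins basement membranes to the underlying fibrils. Rapa females had 7.61, 7.85 and 8.14, against 6.96, 7.52 and 7.84 in control females. The log2 difference was 0.37 ± 0.06 with an adjusted p of 2.34e-06 by limma, and all 21 Rapa females lay above the control mean.

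The genes most often read as marks of stellate cell activation did not pass in females. Col1a1 differed by 0.07 ± 0.13 (adjusted p of 0.665 by limma), Col1a2 by 0.04 ± 0.05 (0.498) and Acta2 by 0.23 ± 0.19 (0.304). Dimmer probes of Acta2 gave 0.17 (0.00767) and 0.16 (0.00279), which missed only the minimum of 15%, and 0.11 (0.258). Timp1 differed by 0.03 ± 0.09 (0.808) and Tgfb1 by 0.12 ± 0.14 (0.468). With the share of detected probes as an added term, Col1a1 passed at 0.56 (0.0258) and the others did not. The spread of these genes among control females was wide, and 1 array carried much of it. Without control female 3, 8 members passed, 4 higher and 4 lower, with Col4a2 at 0.26, Mmp2 at 0.22 and Col14a1 at 0.21 now past the threshold. Without control females 3 and 15, 11 passed, 7 higher and 4 lower, and Col1a1 (0.21, adjusted p of 0.0189), Sparc (0.23, 0.0287) and Tgfb1 (0.28, 0.0215) were then among the higher genes. The 5 genes of the full comparison passed in both of these fits. Control females 3 and 15 were left out together after seeing the data, because many of the 28 genes were high on them. Leaving high arrays out of the control group alone favours higher differences in Rapa females. The Rapa female array with high signals was kept in. The genes gained in these fits thus cannot be read as raised by the diet.

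**Figure D2:**
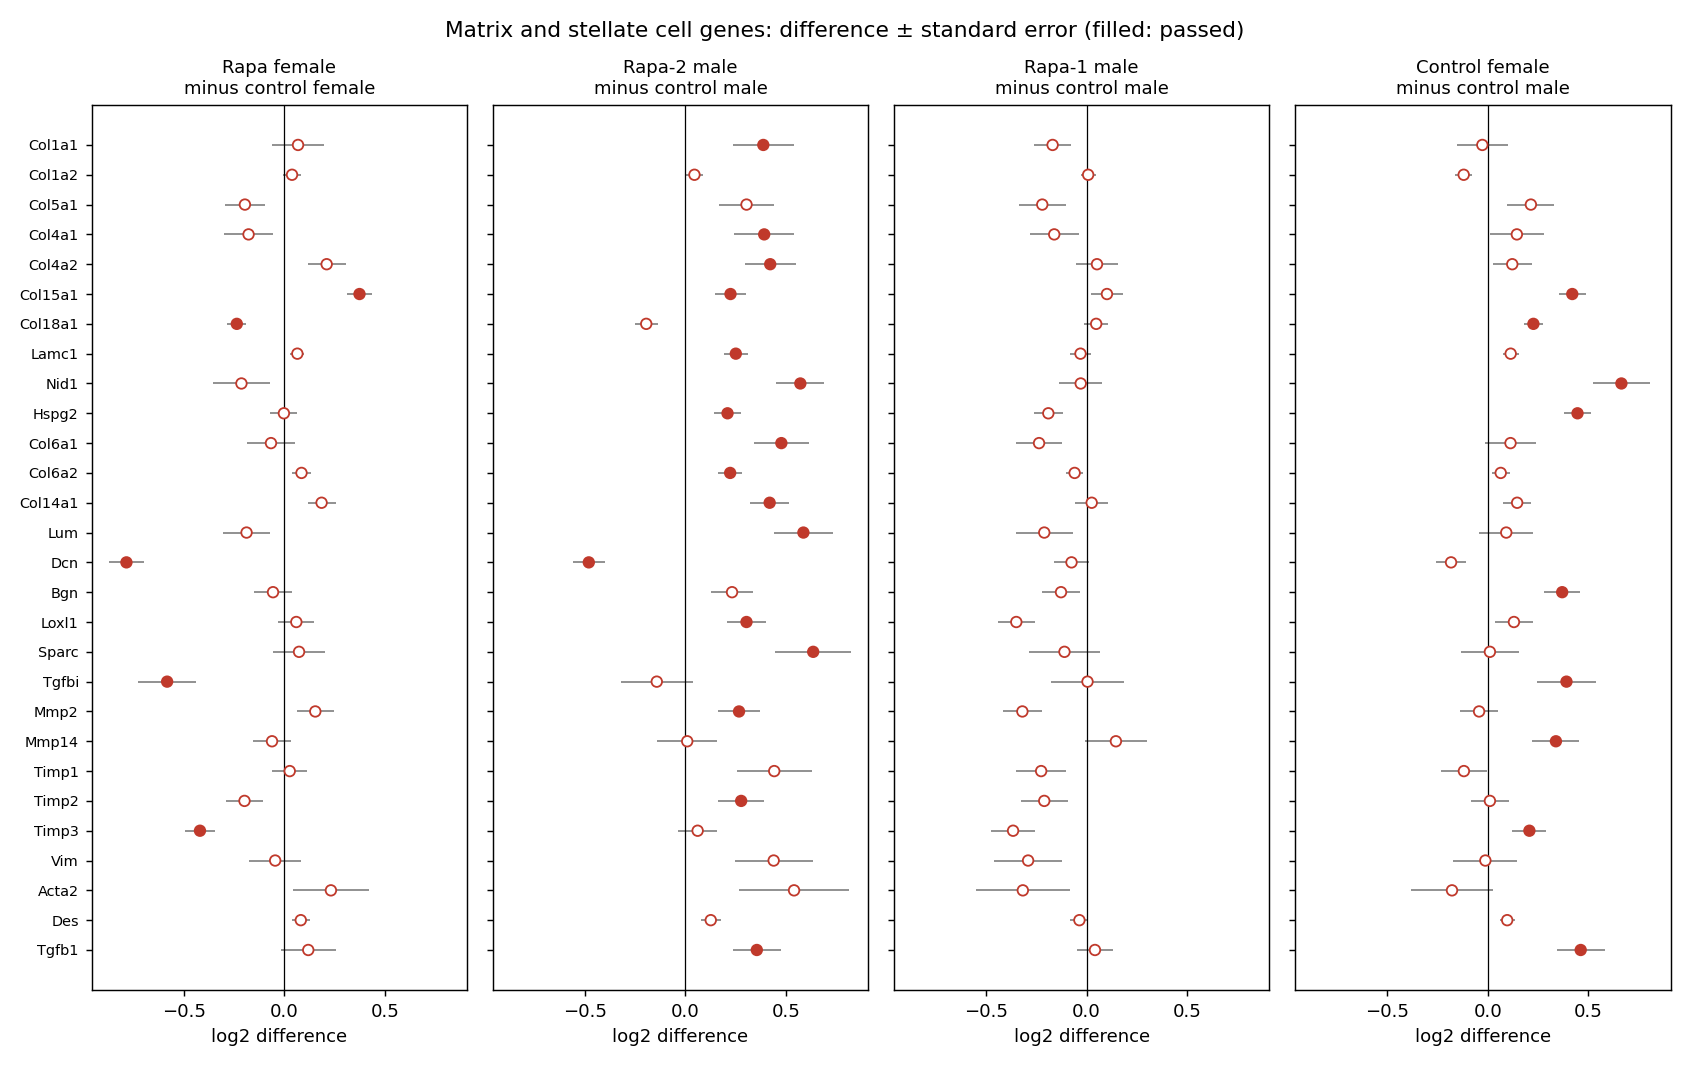
Log2 difference of the brightest tested probe of each of 28 genes in 4 comparisons, on the horizontal axis, with its standard error as a bar. Filled circles passed (adjusted p under 0.05 and a change over 15%): 5 genes for Rapa females, 17 for Rapa-2 males, 0 for Rapa-1 males and 9 for control females against control males.

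In Rapa-2 males most of the list stood higher than in control males. Of the 28 genes, 16 were higher and 1 was lower, where 35.9% of all tested genes passed, 21.7% higher and 14.2% lower. The median log2 difference of the members was 0.29, beside 0.09 for all tested genes, and 25 of the 28 differences were positive. The 16 higher genes came from nearly every role: 6 of 7 basement membrane genes, 3 of 3 microfibril and fibril-associated collagens, 2 of 5 proteases and inhibitors, and 1 each of the fibrillar collagens, proteoglycans, cross-linking enzymes, glycoproteins and the cytokine. The lower gene was a proteoglycan gene, Dcn. None of the 3 cytoskeletal genes passed.

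The count depended on the scaling, the controls and 1 animal. For these refits the share of all tested genes that passed is not given. Their counts thus do not show whether the list changed more than all tested genes did. Under median scaling 4 genes were higher and 1 lower, and with each array's raw median in the model 7 were higher and 0 lower. The raw medians of Rapa-2 males and control males do not overlap, so the latter fit cannot separate group from signal level. Against the 7 control males whose animal numbers follow on from those of the Rapa males, 3 were higher and 1 lower. Without Rapa-2 male 4, 8 of the 28 genes passed, 7 higher and 1 lower. Those 7 were Lum, Nid1, Sparc, Col6a1, Col14a1, Col4a2 and Col15a1, and their differences without that array lay between 0.23 and 0.50. Col1a1, Col4a1, Tgfb1, Loxl1, Timp2, Mmp2, Lamc1, Col6a2 and Hspg2 no longer passed. Their differences without that array lay between 0.17 and 0.25, and for Lamc1 (0.20, adjusted p of 0.00807) and Col6a2 (0.17, 0.0207) it was the minimum of 15% that was missed.

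Sparc, a collagen-binding glycoprotein gene of active mesenchymal cells, had the largest rise of the list with all 6 arrays. Without Rapa-2 male 4 its difference was 0.46, below those of Lum (0.50) and Nid1 (0.48). Its log2 signal was 9.45, 9.70 and 10.77 (lowest, median, highest) in Rapa-2 males and 8.47, 9.17 and 9.93 in control males. Rapa-2 male 4 was the highest, and the other Rapa-2 males lay within the upper part of the control range or just past it. The difference was 0.64 ± 0.19 with an adjusted p of 0.00716 by limma, and all 6 lay above the control mean. A dimmer Sparc probe gave 0.34 ± 0.16 with an adjusted p of 0.0826. Lum, which codes for lumican, a proteoglycan that spaces collagen fibrils, had 8.51, 8.91 and 9.37 in Rapa-2 males and 7.77, 8.23 and 9.07 in control males. Its difference was 0.59 ± 0.15 (adjusted p of 0.00199 by limma), and without Rapa-2 male 4 it was 0.50.

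Nid1 codes for nidogen, the link between laminin and type IV collagen in basement membranes. Rapa-2 males had 8.05, 8.27 and 8.81, against 7.34, 7.77 and 8.29 in control males, a difference of 0.57 ± 0.12 (adjusted p of 0.000333 by limma). The lowest Rapa-2 males lay among the higher control males, so the ranges overlapped.

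For Sparc and Nid1, 2 of the genes that held without Rapa-2 male 4, and for Timp3, which fell in Rapa females, the 250 bases before the annotated start are shown, as examples of the promoters of members named in these comparisons. By their brightest probes Sparc and Nid1 did not pass in Rapa females or in all Rapa males. The dimmer Sparc probe passed as higher in Rapa females (0.22 ± 0.09, adjusted p of 0.0311 by limma). The sequences come from RefSeq (GRCm38.p6) and run 5′ to 3′ on the gene's strand. They lie at chr11:55420081-55420330 (minus strand), chr13:13437352-13437601 (plus strand) and chr10:86300162-86300411 (plus strand). Capitals mark CAGACA, the core letters that Smad proteins of the TGF-beta pathway bind, or GGGCGG, the letters of a GC box, on either strand.
Sparc: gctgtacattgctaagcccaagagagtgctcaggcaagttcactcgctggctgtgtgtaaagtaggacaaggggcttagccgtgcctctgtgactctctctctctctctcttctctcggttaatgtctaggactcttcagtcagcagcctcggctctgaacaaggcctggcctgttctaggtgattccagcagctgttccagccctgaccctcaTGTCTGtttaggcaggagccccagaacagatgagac
Nid1: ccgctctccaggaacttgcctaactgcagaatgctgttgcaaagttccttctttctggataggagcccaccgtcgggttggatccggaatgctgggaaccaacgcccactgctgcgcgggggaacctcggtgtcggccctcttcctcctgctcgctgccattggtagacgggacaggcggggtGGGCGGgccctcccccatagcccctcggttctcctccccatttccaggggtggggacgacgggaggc
Timp3: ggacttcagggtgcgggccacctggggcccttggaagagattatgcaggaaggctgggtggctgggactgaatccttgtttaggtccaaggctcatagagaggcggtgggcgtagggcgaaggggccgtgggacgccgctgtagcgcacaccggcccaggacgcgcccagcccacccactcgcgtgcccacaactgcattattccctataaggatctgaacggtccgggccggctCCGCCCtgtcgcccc
Such windows were found for 23 of the 36 genes. GGGCGG stood in 16 of the 23, against 32.9% of all 27025 windows of the table, CAGACA in 5 against 17.1%, TATAAA in 2 against 13.0%, and the CArG box of serum response factor in 0 against 1.40%. Both strands were read, and of these motifs only TATAAA can lie inside another, the CArG box. Col4a1 and Col4a2, which code for the chains of the main type IV collagen, start next to each other on opposite strands of chromosome 8.

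Type IV collagen and the collagens that join it to other fibrils moved in Rapa-2 males as well. Col4a1 had 8.88, 9.12 and 10.03 in Rapa-2 males and 8.33, 8.77 and 9.32 in control males, a difference of 0.39 ± 0.15 (adjusted p of 0.0308 by limma). Col4a2 gave 0.42 ± 0.13 (0.00796). Col6a1, of the beaded microfibrils around cells, had 7.99, 8.43 and 9.03 in Rapa-2 males and 7.53, 7.86 and 8.44 in control males, and its difference of 0.48 ± 0.14 (0.00583) was matched in direction by a second probe at 0.33 ± 0.12 (0.0205). Col14a1, a collagen that decorates type I fibrils, gave 0.42 ± 0.10 (0.000999).

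Of the genes of activation, Col1a1 passed in Rapa-2 males at 0.39 ± 0.15 (adjusted p of 0.0376 by limma), with 6.84, 7.17 and 8.46 in Rapa-2 males and 6.64, 6.97 and 7.49 in control males. Here 1 array lay far above both groups, and without it the difference was 0.17. Col1a2 differed by 0.04 ± 0.04 (0.409), and so did not follow its partner chain. Tgfb1 gave 0.36 ± 0.12 (0.0149). Acta2 gave 0.54 ± 0.27 (0.102) and Timp1 0.44 ± 0.19 (0.0527), and neither passed. Without Rapa-2 male 4 they were 0.32 and 0.20. The 3 dimmer probes of Acta2 gave 0.08 (0.25), 0.20 (0.00807) and 0.23 (0.141), and none of them passed. For the probe at 0.20 it was the minimum of 15% that was missed. The remaining genes that passed were Loxl1, Timp2, Mmp2, Lamc1, Col15a1, Col6a2 and Hspg2, with differences between 0.21 and 0.30.

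Dcn was the gene that fell in Rapa-2 males. Its brighter probe had 12.16, 12.37 and 12.67 in Rapa-2 males and 12.60, 12.89 and 13.25 in control males, a difference of -0.48 ± 0.08 (adjusted p of 1.63e-05 by limma). The dimmer probe had 9.28, 9.44 and 9.72 in Rapa-2 males and 10.94, 11.20 and 11.64 in control males, so that on it the groups did not overlap, and its difference was -1.75 ± 0.09 (7.14e-15). Decorin thus went against the 16 members that rose in these animals, also without Rapa-2 male 4 (-0.54, adjusted p of 6.33e-06).

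**Figure D3:**
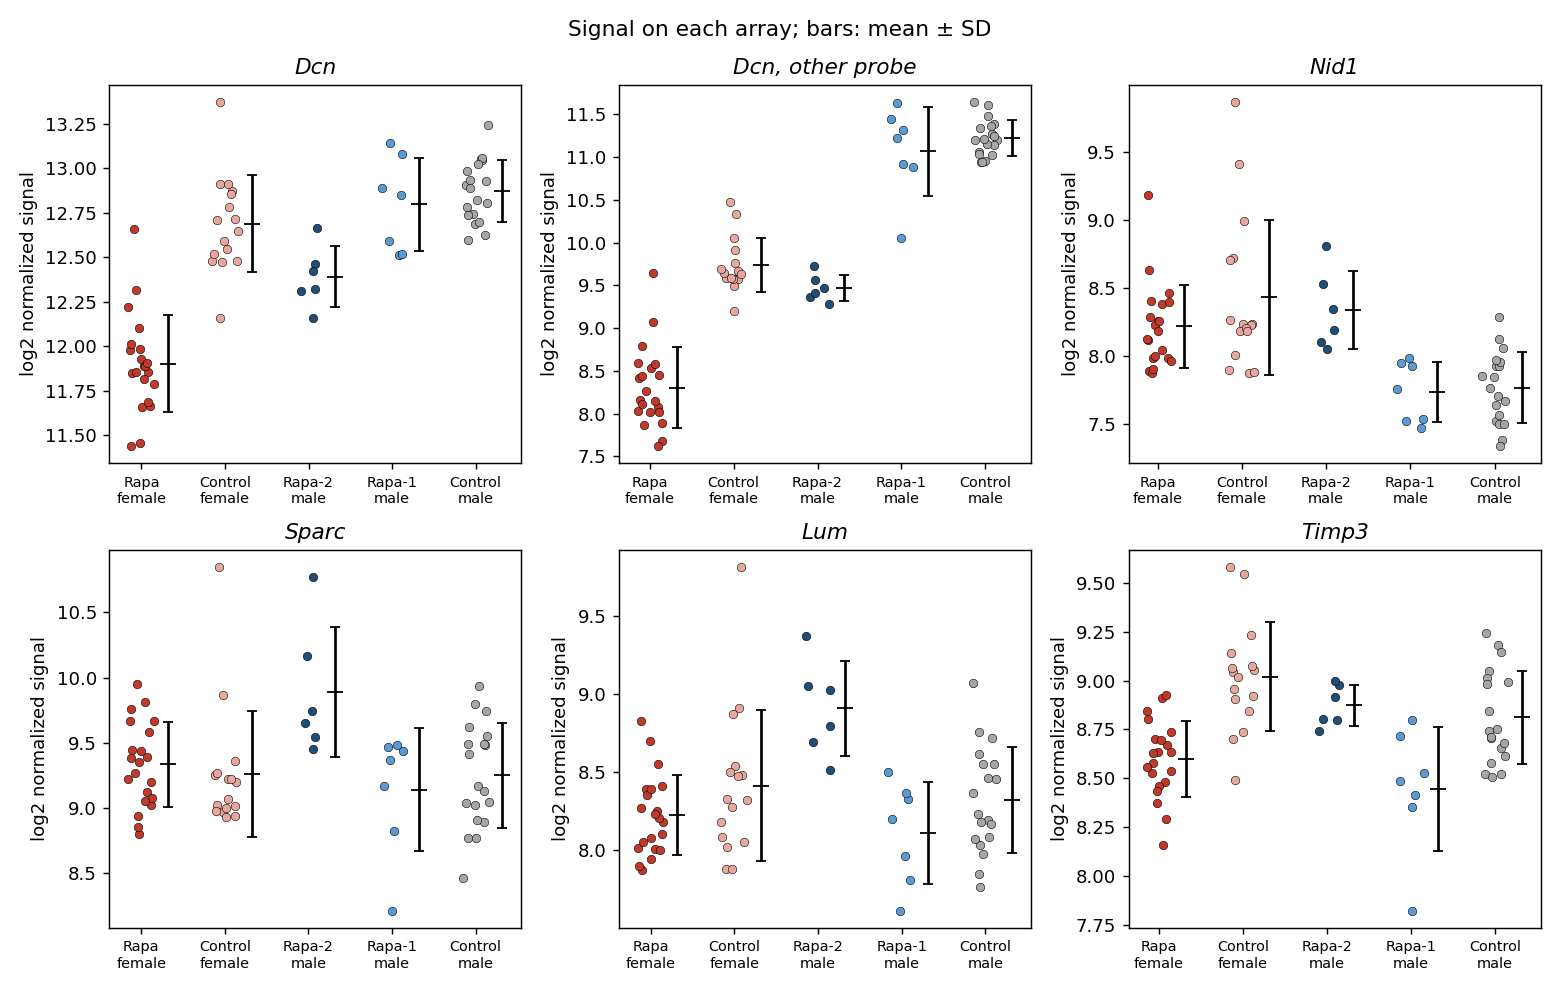
Log2 normalized signal (vertical axis) of Dcn on both of its probes and of Nid1, Sparc, Lum and Timp3 on each array of the 5 groups, with the mean and SD beside the points. On the dimmer Dcn probe the 6 Rapa-2 males lie between 9.28 and 9.72, below all control males, and 1 Rapa-2 male has a Sparc signal of 10.77.

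In Rapa-1 males 0 of the 28 genes passed, where 0.39% of all tested genes did, 0.103% higher and 0.286% lower, and the pairwise test of the methods with pooled variance also gave 0. At an unadjusted p under 0.05 there were 5 of the 28, beside 1178 of all 8729 tested genes. The median log2 difference of the members was -0.12, beside 0.0003 for all tested genes, and 20 of the 28 were negative. The lowest values were those of Timp3 (-0.37 ± 0.11, adjusted p of 0.131 by limma), Loxl1 (-0.35 ± 0.09, 0.0776) and Mmp2 (-0.32 ± 0.10, 0.131), all below the control mean in 7 of 7 animals. Dcn gave -0.08 ± 0.09 (0.741), Col1a1 -0.17 ± 0.09 (0.417), Col1a2 0.01 ± 0.04 (0.951), Acta2 -0.32 ± 0.23 (0.574), Timp1 -0.23 ± 0.13 (0.429) and Tgfb1 0.04 ± 0.09 (0.876). Col6a2 was detected on 0 of the 7 arrays, so its level there has only a bound.

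With the 13 Rapa males as 1 group, which is the comparison the diet labels give, 0 of the 28 genes were higher and 1 was lower, where 9.85% of all tested genes passed, 3% higher and 6.85% lower. That gene was Dcn, at -0.26 ± 0.08 (adjusted p of 0.0262 by limma) on the brighter probe and -0.89 ± 0.21 (0.0063) on the dimmer one. On the brighter probe the call was lost with the raw array median (-0.06, 0.878) or the share of detected probes (-0.12, 0.338) as an added term. It was also lost with either set of control males alone (-0.28, 0.183, and -0.25, 0.121), with a random block for stretches of animal numbers (-0.28, 0.348) and with a replicate block (-0.28, 0.276). The low values came from the Rapa-2 males, as given above. Col1a1 differed by 0.09 ± 0.12 (0.658), Col1a2 by 0.02 ± 0.03 (0.625), Acta2 by 0.08 ± 0.21 (0.828), Timp1 by 0.08 ± 0.15 (0.738) and Tgfb1 by 0.19 ± 0.09 (0.155).

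Whether the sexes differed in the effect of the diet was asked in a model of all 69 arrays, at an adjusted p under 0.05 with no fold minimum. Of the 28 genes 1 passed, where 20.3% of all tested genes did, 10.4% with a higher and 9.89% with a lower effect in females. For Dcn the effect in females minus that in males was -0.52 ± 0.12 on the log2 scale (adjusted p of 0.00206 by limma), and its dimmer probe gave -0.54 ± 0.24 (0.101). The call on Dcn was lost with the share of detected probes as an added term (-0.28, 0.124) and with a random block for stretches of animal numbers (-0.52, 0.477). Against the Rapa-2 males alone, 8 of the 28 genes passed, all with a lower effect in Rapa females, where 19.4% of all tested genes passed, 8.68% with a higher and 10.7% with a lower effect. These were Nid1 (-0.79 ± 0.21, adjusted p of 0.00499 by limma), Lum (-0.78 ± 0.20, 0.00307), Col4a1 (-0.57 ± 0.20, 0.0393), Col6a1 (-0.54 ± 0.20, 0.0417), Col5a1 (-0.50 ± 0.17, 0.0314), Timp3 (-0.48 ± 0.13, 0.00436), Timp2 (-0.48 ± 0.16, 0.0224) and Lamc1 (-0.19 ± 0.06, 0.0338). Without Rapa-2 male 4, Nid1, Lum and Timp3 remained. For Dcn the same difference was -0.30 (0.102) on the brighter probe and 0.32 (0.247) on the dimmer one, which have opposite signs.

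Between control females and control males, 9 of the 28 genes were higher and 0 were lower by their brightest probes, where 36% of all tested genes passed, 21.8% higher and 14.3% lower. The median of the members was 0.12, beside 0.07 for all tested genes. Nid1 had 7.88, 8.23 and 9.87 (lowest, median, highest) in control females and 7.34, 7.77 and 8.29 in control males, a difference of 0.67 ± 0.14 (adjusted p of 0.000157 by limma). Control female 15 gave the highest value. Tgfb1 had 7.22, 7.50 and 8.92 in control females and 6.94, 7.18 and 7.70 in control males, a difference of 0.46 ± 0.12 (0.00131), and all 16 control females lay above the male mean.

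Hspg2, the gene of perlecan in basement membranes, gave 0.45 ± 0.07 (adjusted p of 5.74e-07 by limma) and Col15a1 0.42 ± 0.07 (2.68e-06). Tgfbi gave 0.39 ± 0.15 (0.025), Bgn, of the proteoglycan biglycan, 0.37 ± 0.09 (0.000726), and Mmp14, a membrane-bound protease that activates Mmp2, 0.34 ± 0.12 (0.014). Col18a1 gave 0.23 ± 0.05 (0.000129), with 0.56 ± 0.08 (1.38e-07) on its other probe, and Timp3 0.21 ± 0.09 (0.0383). Without control female 3, 9 genes were higher and 1 lower, and without control females 3 and 15, 7 were higher and 1 lower.

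Some probes of the same gene differed in what they showed between the sexes. The brighter Dcn probe gave -0.18 ± 0.07 (adjusted p of 0.0357 by limma, with a change under the minimum), and the dimmer one -1.48 ± 0.09 (7.4e-17), on which control females and control males did not overlap. The brighter Sparc probe gave 0.01 ± 0.14 (0.959) and the dimmer -0.32 ± 0.11 (0.0112). Col1a1 (-0.03 ± 0.13, 0.873), Col1a2 (-0.12 ± 0.04, 0.0173, with a change under the minimum), Acta2 (-0.18 ± 0.20, 0.466) and Timp1 (-0.12 ± 0.11, 0.381) did not pass.

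Over the 5 groups, the Rapa-2 males had the highest mean for 17 of the 28 genes and the Rapa-1 males the lowest for 19. These are the smallest groups, and Rapa-2 male 4 was the highest of its group for 23 of the 28 genes. The order of means was not counted without that array or for all tested genes. Control females had the highest mean for 7 genes. For Sparc the means were 9.33 ± 0.32 (Rapa females), 9.26 ± 0.48 (control females), 9.89 ± 0.50 (Rapa-2 males), 9.14 ± 0.47 (Rapa-1 males) and 9.25 ± 0.40 (control males). The means of the members not yet given by group follow in the order of their roles, as log2 signal with the SD over n = 21, 16, 6, 7 and 19 arrays.

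Of the fibrillar collagens, Col5a1 averaged 7.95 ± 0.19 (Rapa females), 8.14 ± 0.41 (control females), 8.23 ± 0.34 (Rapa-2 males), 7.71 ± 0.17 (Rapa-1 males) and 7.93 ± 0.30 (control males). Col1a2 averaged 6.83 ± 0.12 (Rapa females), 6.80 ± 0.16 (control females), 6.96 ± 0.10 (Rapa-2 males), 6.92 ± 0.06 (Rapa-1 males) and 6.92 ± 0.09 (control males), a range of means of little more than the SDs, near the detection limit. Of the basement membrane genes, Col4a2 averaged 8.51 ± 0.26 (Rapa females), 8.30 ± 0.34 (control females), 8.60 ± 0.39 (Rapa-2 males), 8.23 ± 0.22 (Rapa-1 males) and 8.17 ± 0.25 (control males). Lamc1, of a laminin chain, averaged 7.70 ± 0.09 (Rapa females), 7.64 ± 0.10 (control females), 7.77 ± 0.16 (Rapa-2 males), 7.49 ± 0.12 (Rapa-1 males) and 7.52 ± 0.12 (control males). Hspg2 averaged 8.69 ± 0.18 (Rapa females), 8.69 ± 0.24 (control females), 8.46 ± 0.12 (Rapa-2 males), 8.06 ± 0.20 (Rapa-1 males) and 8.25 ± 0.16 (control males). Both Lamc1 and Hspg2 had their lowest means in Rapa-1 males.

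Col6a2, the partner chain of Col6a1, averaged 6.93 ± 0.12 (Rapa females), 6.84 ± 0.16 (control females), 7.00 ± 0.19 (Rapa-2 males), 6.72 ± 0.05 (Rapa-1 males) and 6.78 ± 0.11 (control males). Its mean in Rapa-1 males is only a bound, as it was detected there on 0 of 7 arrays. Col14a1 averaged 7.84 ± 0.21 (Rapa females), 7.66 ± 0.22 (control females), 7.93 ± 0.26 (Rapa-2 males), 7.54 ± 0.16 (Rapa-1 males) and 7.51 ± 0.20 (control males). Bgn averaged 12.27 ± 0.28 (Rapa females), 12.33 ± 0.33 (control females), 12.19 ± 0.28 (Rapa-2 males), 11.83 ± 0.24 (Rapa-1 males) and 11.96 ± 0.22 (control males). For Bgn and not for the other genes of this paragraph, control females had the highest mean. Loxl1, an enzyme that cross-links elastin, averaged 7.68 ± 0.22 (Rapa females), 7.62 ± 0.33 (control females), 7.79 ± 0.15 (Rapa-2 males), 7.14 ± 0.16 (Rapa-1 males) and 7.49 ± 0.23 (control males).

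Of the proteases and inhibitors, Mmp2, a gelatinase, averaged 7.81 ± 0.25 (Rapa females), 7.66 ± 0.32 (control females), 7.97 ± 0.19 (Rapa-2 males), 7.38 ± 0.16 (Rapa-1 males) and 7.70 ± 0.24 (control males). Mmp14 averaged 10.42 ± 0.26 (Rapa females), 10.48 ± 0.35 (control females), 10.15 ± 0.22 (Rapa-2 males), 10.29 ± 0.37 (Rapa-1 males) and 10.14 ± 0.36 (control males). Timp1 averaged 7.01 ± 0.18 (Rapa females), 6.99 ± 0.36 (control females), 7.55 ± 0.65 (Rapa-2 males), 6.88 ± 0.12 (Rapa-1 males) and 7.10 ± 0.33 (control males), with its widest spread in Rapa-2 males, where 1 array was high. Timp2, which inhibits proteases and also takes part in the activation of Mmp2, averaged 8.24 ± 0.25 (Rapa females), 8.44 ± 0.34 (control females), 8.71 ± 0.31 (Rapa-2 males), 8.22 ± 0.36 (Rapa-1 males) and 8.43 ± 0.24 (control males).

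Of the cytoskeletal genes, Acta2 averaged 8.98 ± 0.60 (Rapa females), 8.75 ± 0.60 (control females), 9.47 ± 0.55 (Rapa-2 males), 8.61 ± 0.21 (Rapa-1 males) and 8.93 ± 0.63 (control males). Vim, of the filament protein vimentin of mesenchymal cells and leukocytes, averaged 8.18 ± 0.22 (Rapa females), 8.22 ± 0.56 (control females), 8.67 ± 0.52 (Rapa-2 males), 7.94 ± 0.38 (Rapa-1 males) and 8.23 ± 0.41 (control males). Des, of desmin, which marks rodent stellate cells and muscle, averaged 7.53 ± 0.15 (Rapa females), 7.45 ± 0.11 (control females), 7.48 ± 0.09 (Rapa-2 males), 7.32 ± 0.08 (Rapa-1 males) and 7.35 ± 0.10 (control males).

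Members varied together from animal to animal within a group. Over all 378 pairs of the 28 genes, given as a description of arrays that share their libraries, the median Pearson r was 0.28 in Rapa females and 0.58 in control females. It was 0.78 for the Rapa-2 males, 0.40 for the Rapa-1 males and 0.39 for the control males. Leaving out the array with the highest median deviation gave 0.30 in control females and 0.40 in Rapa-2 males, so that 1 array made much of the agreement there, and 0.38 in control males.

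For 6 pairs chosen by their biology, r and rho were computed in Rapa females, control females and control males, 18 relations in all, with two-sided permutation p-values adjusted over the 18. Pearson's r passed an adjusted p of 0.05 in 14, and both r and rho in 10, of which 6 were in control males. Col4a1 and Col4a2 gave r = 0.90 and rho = 0.90 in control males (permutation p of 1e-05 for each, the smallest that the resampling can give, adjusted p of 9e-05 for r), and r = 0.89 without the 2 arrays farthest from the median of Col4a1. In Rapa females the same pair gave r = 0.74 and rho = 0.72 (permutation p of 5e-05 and 0.00035, adjusted 0.0003 for r), and r = 0.66 without 2 arrays. In control females r was 0.80 and rho 0.64 (permutation p of 0.00137 and 0.00896), but r without 2 arrays was 0.34.

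Col1a1 and Sparc gave r = 0.82 and rho = 0.85 in control males (permutation p of 1e-05 and 2e-05), and 0.81 without 2 arrays. In Rapa females they gave r = 0.52 and rho = 0.55 (permutation p of 0.0162 and 0.0106), and 0.47 without 2 arrays. In control females r was 0.91 and rho 0.51 (permutation p of 0.00186 and 0.0486), and r fell to 0.26 once 2 arrays were left out. Lum with Dcn gave r = 0.85 in control females, and 0.67 without 2 arrays. Col1a1 and Col1a2, the chains of 1 protein, gave r = -0.31 and rho = -0.04 in Rapa females (permutation p of 0.168 and 0.871), where Col1a2 was detected on 2 of 21 arrays.

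**Figure D4:**
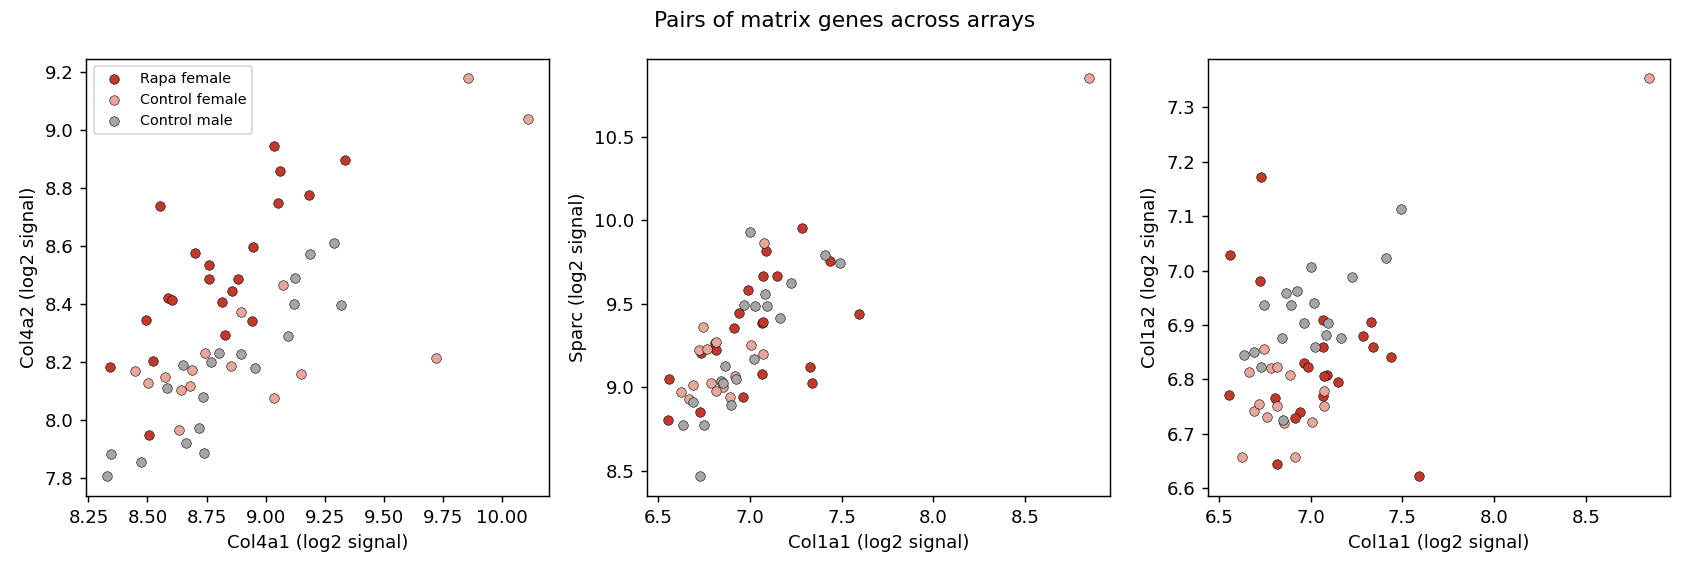
Log2 signal of the genes of 3 pairs on each array of Rapa females, control females and control males (both axes in log2 signal). Col4a1 and Col4a2 lie along 1 band in control males (r = 0.90), and 1 control female lies far from the rest in Col1a1 (8.85).

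TGF-beta signalling, the pathway that drives matrix production in stellate cells, was read through 21 tested genes of a list of 29 receptors, Smad proteins, inhibitors and targets that does not overlap the members. In Rapa females 1 was higher and 8 were lower than in control females, with a median of -0.13, where 19.2% of all tested genes were higher and 18.7% lower. Smad1, a transducer of the BMP branch, fell by 0.76 (adjusted p of 3.4e-11 by limma), Skil, a repressor of Smad proteins, by 0.69 (8e-05), and the target gene Id2 by 0.69 (2.6e-07). In Rapa-2 males 6 were higher and 5 lower, with a median of 0.03, where 21.7% of all tested genes were higher and 14.2% lower. There, Id2 (-1.54, adjusted p of 9.1e-11), Tgif1 (-1.34, 6.4e-16) and Smad1 (-1.32, 5.1e-14) had the largest changes. In control females against control males 9 were higher and 3 lower, with a median of 0.19. There, 21.8% of all tested genes were higher and 14.3% lower. The 3 lower genes, Id2 (-1.27), Tgif1 (-1.26) and Smad1 (-1.01), again had the largest changes. In Rapa-1 males 0 passed, where 0.39% of all tested genes did.

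Of the quiescent stellate cell markers, 11 were tested. In Rapa females 9 of the 11 differences were negative, with a median of -0.09 beside 0.02 for all tested genes. There, 2 were higher and 2 lower, where 19.2% of all tested genes were higher and 18.7% lower. Pdgfra, a growth factor receptor, was at -0.75 (adjusted p of 6.2e-07 by limma), Rgs5, also a pericyte gene, at -0.50 (2.7e-05) and Ngfr at 0.32 (0.0004). In Rapa-2 males 7 of the 11 were negative, with a median of -0.06 beside 0.09 for all tested genes. There, 0 were higher and 3 lower, where 21.7% of all tested genes were higher and 14.2% lower. The 3 were Colec10 at -0.54 (9.7e-09), Cygb at -0.45 (0.0015) and Pdgfra at -0.28 (0.0046). The mean log2 signal of the list ranged from 7.91 to 8.31 in Rapa females, 8.03 to 8.49 in control females, 7.97 to 8.11 in Rapa-2 males and 8.02 to 8.32 in control males. Markers of smooth muscle, 6 tested of 12, included 2 that rose in Rapa-2 males, Smtn (0.37, 7.7e-06) and Mylk (0.36, 0.0011), while Myh11 and Cnn1 were not tested. Endothelial markers, with all 15 tested, had 4 higher and 1 lower in Rapa-2 males, and hepatocyte markers 0 higher and 4 lower of 9. Of all tested genes, 21.7% were higher there and 14.2% lower. The part of these cell types in the changes of the matrix genes was not tested.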

How the data were processed

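Total RNA of each liver was amplified, labelled and hybridized by the authors to Illumina MouseRef-8 bead arrays. The deposited non-normalized values are average bead signal intensity per probe, and their deposited detection values are a score, 1 minus the detection p. The deposited processed values are log2 signals that the authors normalized by quantiles, and the values recomputed here matched them with r of at least 0.9999. Here plain log2 signals were quantile-normalized, and probes with a detection p under 0.05 on at least 13 arrays entered moderated fits (limma 3.58.1, R 4.3.3), with Benjamini-Hochberg adjustment over 12442 probes. The tested probe of highest mean signal represents a gene. Permutation tests used numpy 2.4.6, with ranks and adjustment by scipy 1.17.1. The members and all lists were chosen with earlier results of these data known, and the Rapa-1 and Rapa-2 groups come from these arrays. Named are up to 8 passing members of largest change per comparison, 7 fixed members, and up to 3 passing genes of each other list. Fits were checked on simulated data. Alternatives were background correction, other filters, the authors' values, median scaling, covariates, blocks, single stretches of control animal numbers and left-out arrays. Promoters came from RefSeq (GRCm38.p6). The number of arrays limits the precision.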

Additional observations from a re-analysis of the deposited data

Results flagged for a closer look

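Array 4 of the Rapa-2 males lay far above the other 5 for 6 of the 28 genes, as judged by the gap to its nearest neighbour against the range of the group. Its log2 signal was 10.58 for Acta2, where the next Rapa-2 male had 9.29, and 8.77 for Timp1, where the next had 7.59. It was 9.72 for Vim (next 8.58), 10.03 for Col4a1 (next 9.28), 9.36 for Col4a2 (next 8.58) and 8.87 for Col5a1 (next 8.27). Among 56 readings of this kind, of 28 genes in Rapa-2 and Rapa-1 males, chance marks about 1 in 20, genes of 1 array are not independent, and all 6 that were marked were of this array.

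The effect of the diet differed between groups for some genes, by limma's test of the difference itself. For Dcn the female effect minus the male effect was -0.52. For the female effect minus the Rapa-2 male effect the log2 values were -0.79 for Nid1, -0.78 for Lum, -0.57 for Col4a1, -0.54 for Col6a1, -0.50 for Col5a1, -0.48 for Timp3, -0.48 for Timp2 and -0.19 for Lamc1, and the comparison is descriptive, since the Rapa-2 males were drawn from these arrays.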

How the results depend on the processing

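Counts of members that passed are given here as higher and lower together. The shares of all tested genes that passed in the refits, here and above, are not given. The counts thus describe the list alone. In Rapa females the count was 5, and it ranged from 5 to 8 when single arrays were left out, 8 being without control female 3. Median scaling gave 15, all lower, but it also moved the median difference of all tested probes to -0.20 from 0.03. Leaving out control females 3 and 15 gave 11. A covariate for the share of detected probes left the count at 5, but 4 were higher and 1 lower, with 2 shared (Dcn and Col15a1), the others being Col1a1, Col4a1 and Col4a2. Of single genes, Lamc1 turned to -0.21 under median scaling and Col4a1 to 0.45 with that covariate. For all Rapa males the count of 1 became 0 with the raw array median as covariate, a random block for stretches of animal numbers cut where the group changed, the replicate block or either set of control males alone, 2 in 1 model of all arrays and 3 with the share of detected probes. In Rapa-2 males the count of 17 ranged from 8 (without Rapa-2 male 4) to 21 (without Rapa-2 male 6). It was 5 under median scaling (4 higher) and 7 with the raw median as covariate (all higher), whose ranges in these groups do not overlap. The count was 2 with the replicate block (1 higher) and 4 against the 7 control males numbered next to the Rapa males (3 higher). In Rapa-1 males the count of 0 became 3 with that random block and 1 against those 7 control males. Control females against control males gave 15 with the raw median as covariate and 5 against those 7, in place of 9. The interaction gave 9 under median scaling, 4 with the raw median, 0 with the random block or the share of detected probes, and 2 without Rapa-2 male 4, in place of 1. The female effect against that of Rapa-2 males gave 19 under median scaling and with the raw median, 5 without the detection filter, and 3 with the random block or without Rapa-2 male 4, in place of 8. The cause of these shifts was not tested. Leaving out control females 3 and 15 together, leaving out Rapa-2 male 4 from effects compared between groups and, for the interaction, the covariate of detected probes were chosen after seeing the data. Replicate numbers mark different animals: same-numbered arrays of Rapa-2 and control males deviated together with r between -0.52 and 0.31, and 0 of 6 correlated best with their own number, so the block is given as a limit only. Weak signals limit Col1a1, Col1a2, Col6a2 and Timp1.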

Other observations

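Of 18 tested matrix receptors and adhesion genes, 4 were higher and 5 lower in Rapa females than in control females, where 37.9% of all tested genes passed. The largest changes were those of Vcl, of the adhesion protein vinculin (-0.85, adjusted p of 2.1e-09 by limma), Itgb5, an integrin chain (-0.76, 1e-08), and Sdc2, a cell surface proteoglycan (-0.59, 6.1e-10). In Rapa-2 males 5 were higher and 2 lower, where 35.9% of all tested genes passed, with Itgb5 at -0.99 (3.5e-11), Vcl at -0.71 (8.4e-06) and Cd44, the hyaluronan receptor, at 0.42 (0.0014). In control females against control males 10 were higher and 2 lower, where 36% of all tested genes passed, with Vcl at -0.82 (1.6e-09), Itga3 at 0.41 (1.5e-08) and Dag1, of dystroglycan, at 0.40 (7.6e-05).

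Of 17 tested collagens and matrix proteins outside the members, Col16a1 was lower in Rapa females (-0.50, adjusted p of 1.6e-08 by limma) and in Rapa-2 males (-0.48, 7.9e-05), and Nid2, of the second nidogen, was higher in Rapa-2 males (0.53, 1.5e-05). The collagen-modifying enzyme gene Colgalt1 was lower in Rapa females (-0.67, 2e-07) and in Rapa-2 males (-0.41, 0.0023). Of the 11 tested genes of collagen processing, 1 was higher and 2 lower in Rapa females, where 19.2% of all tested genes were higher and 18.7% lower. In Rapa-2 males 2 of them were higher and 1 lower, where 21.7% of all tested genes were higher and 14.2% lower. Only 1 of the 11 differences was negative there. Among 12 tested proteases, Adam9 was lower in Rapa-2 males (-1.62, 1.4e-14), in Rapa females (-0.22, 5.3e-07) and in control females against control males (-1.46, 9.3e-23). Mmp9, a gelatinase, was higher in Rapa-2 males (0.66, 0.029). Markers of portal fibroblasts and mesothelium had 5 tested of 12. In Rapa females 0 were higher and 1 lower, Wt1 (-0.28, 1.3e-05), where 19.2% of all tested genes were higher and 18.7% lower. In Rapa-2 males 0 were higher and 2 lower, Wt1 (-0.37, 0.00038) among them, where 21.7% of all tested genes were higher and 14.2% lower. The median of the 5 was 0.13 and 0.06 in these comparisons, and 3 of the 5 differences were positive in each. Cholangiocyte markers had 4 tested of 10, with a median of 0.02 in Rapa-2 males and Sox9 as the gene that passed, lower there (-0.25, 0.00055). Of 11 Kupffer cell and macrophage markers, all 11 differences were negative in Rapa females, with a median of -0.29. Cd163 (-0.62, 0.004) and Adgre1 (-0.32, 0.03) passed, where 19.2% of all tested genes were higher and 18.7% lower. The control group there holds control females 3 and 15, on which the mean of these markers lay 1.43 and 1.86 above the group median. The Rapa group holds Rapa female 2, with 1.44. In Rapa-2 males 8 of the 11 were positive, with a median of 0.33, and the gene that passed, Adgre1, was lower (-1.85, 4.2e-06). There, 21.7% of all tested genes were higher and 14.2% lower. The part of these cells in the matrix signals of the same livers was not tested.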
